A study of Mus musculus with 12 samples.

Results

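The 10 Serpina genes examined here belong to the alpha-1-antitrypsin gene cluster of the mouse: Serpina1a, Serpina1b, Serpina1c, Serpina1d, Serpina1e, Serpina3k, Serpina3m, Serpina6, Serpina10 and Serpina12. They were chosen by symbol from the 52636 genes in the files, and all 10 were among the 12453 genes whose mean count reached 12 and were therefore tested. RNA-seq was performed on tissue of the left lateral liver lobe of 12 male C57Bl/6J mice at 16 weeks of age, 1 library per mouse. The 6 VDD-F1 mice were born to dams fed a vitamin D-deficient diet before mating and through pregnancy, with calcium gluconate added, and the 6 VDS-F1 mice to dams fed a vitamin D-sufficient diet. Both groups received the sufficient diet after birth, so no mouse was deficient by its own diet when the liver was taken. Whether mice of a group were littermates is not given in the sources used here, so that p-values measure the spread between mice only.

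Most serpins of this cluster are secreted proteins that trap a protease. The enzyme cleaves an exposed strand of the serpin, the reactive centre loop, and the serpin then changes shape and holds it fast, so the letters of that loop help to set which protease is bound. The liver is the main source of circulating serpins. Serpina1a to Serpina1e are mouse copies of alpha-1-antitrypsin, the plasma inhibitor of neutrophil elastase, which humans make from a single gene. Serpina3k and Serpina3m belong to a mouse expansion of the alpha-1-antichymotrypsin gene, and Serpina3k is also known as a kallikrein-binding protein. Serpina10 is the protein Z-dependent inhibitor of coagulation factor Xa. Serpina6 is corticosteroid-binding globulin, a carrier that holds glucocorticoids and inhibits no protease. Serpina12 is vaspin, described as an adipokine that inhibits kallikrein 7.

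The files held 29 genes whose symbol starts with Serpina. Of these, 28 lay within 799544 bases of chromosome 12 (chr12:103614786-104414329, GRCm38), 17 of the 29 passed the filter and 4 had no count in any library. On the minus strand, in map order, were Serpina10 (ENSMUSG00000061947.10, chr12:103614786-103631444), Serpina6 (ENSMUSG00000060807.7, chr12:103646630-103657212), Serpina1b (ENSMUSG00000071178.11, chr12:103728156-103830373), Serpina1d (ENSMUSG00000071177.4, chr12:103763594-103773592), Serpina1a (ENSMUSG00000066366.14, chr12:103853589-103863562), Serpina1c (ENSMUSG00000079015.2, chr12:103894926-103904887), Serpina1e (ENSMUSG00000072849.10, chr12:103946931-103958975) and Serpina12 (ENSMUSG00000041567.3, chr12:104028769-104044443). Serpina3k (ENSMUSG00000058207.6, chr12:104338486-104346144) and Serpina3m (ENSMUSG00000079012.11, chr12:104338486-104394257) were on the plus strand and share an annotated start.

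The Serpina1 copies were 96.3% to 98.5% identical to each other over their coding sequences (10 pairs), while a Serpina1 copy was 49.7% to 57.5% identical to another of the 10 genes (25 pairs) and Serpina3k was 91.7% identical to Serpina3m. Among the 1239 aligned coding positions without gaps, 86 differed in at least 1 Serpina1 copy. The 60-base stretch with the most such positions, 18, lies in the last coding exon and falls in the part that encodes the reactive centre loop. It covers coding bases 1101 to 1160 of the 1239 in Serpina1b, Serpina1c, Serpina1d and Serpina1e and bases 1170 to 1229 of the 1308 in the Serpina1a transcript used. The stretches are shown because no other 60 bases of the coding sequence hold more of the differences between the copies. They are on the minus strand at chr12:103853757-103853816 in Serpina1a, chr12:103728324-103728383 in Serpina1b, chr12:103895094-103895153 in Serpina1c, chr12:103763762-103763821 in Serpina1d and chr12:103947100-103947159 in Serpina1e. In the lines below, written 5′ to 3′ from GENCODE M21 transcripts on GRCm38, capitals mark the positions at which the copies are not all alike.

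Serpina1a: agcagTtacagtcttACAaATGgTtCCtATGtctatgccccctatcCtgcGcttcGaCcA
Serpina1b: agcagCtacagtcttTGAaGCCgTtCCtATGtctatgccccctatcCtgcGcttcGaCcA
Serpina1c: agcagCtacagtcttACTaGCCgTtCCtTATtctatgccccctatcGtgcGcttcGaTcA
Serpina1d: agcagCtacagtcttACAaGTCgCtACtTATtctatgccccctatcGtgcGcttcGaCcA
Serpina1e: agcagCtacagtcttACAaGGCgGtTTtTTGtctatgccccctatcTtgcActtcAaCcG

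Serpina1e differed from each other copy at 10 to 12 of these 60 bases, while Serpina1c and Serpina1d differed from each other at 5.

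This closeness bears on every value for the Serpina1 copies, since a read that fits several copies was counted for none. Of all windows of 100 bases in the transcript of Serpina1e, 81.8% occurred in no transcript of another gene. The share was 73.6% for Serpina1b, 70.7% for Serpina1d, 50.1% for Serpina1a and 41.5% for Serpina1c, whose windows were shared most often with Serpina1a (58.0%). Windows were unique in 95.1% of Serpina3k and 93.9% of Serpina3m, and in 100% of Serpina6, Serpina10 and Serpina12. Reads with several alignments made up 6.69% to 8.92% of each library, with means of 7.95% ± 0.805 (SD, n = 6) in VDD-F1 and 7.42% ± 0.476 in VDS-F1 (two-sided exact permutation test, p = 0.190, smallest possible 0.00216). That share covers the whole library, so it cannot show how many reads were lost from these copies.

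Promoter sequence was at hand for 6 of the 10 genes, from RefSeq on GRCm38.p6, from 250 bases before to 50 after each start. It showed how alike the regulatory DNA of the Serpina1 copies is. A run of 59 bases was the same in all 5 and occurred in no other of the 32851 promoters of the table. The run ends within 8 bases of the RefSeq start of Serpina1a, Serpina1b and Serpina1c, just past that of Serpina1d and 59 bases before that of Serpina1e. These starts are not those of the gene coordinates given above, within which the runs of Serpina1b and Serpina1e lie. The lines below give it in capitals with the 40 bases before it, 5′ to 3′ on the minus strand, at chr12:103863621-103863719 for Serpina1a, chr12:103738196-103738294 for Serpina1b, chr12:103904958-103905056 for Serpina1c, chr12:103773630-103773728 for Serpina1d and chr12:103956956-103957054 for Serpina1e.

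Serpina1a: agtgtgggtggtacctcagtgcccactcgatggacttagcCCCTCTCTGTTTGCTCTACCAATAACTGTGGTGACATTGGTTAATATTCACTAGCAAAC
Serpina1b: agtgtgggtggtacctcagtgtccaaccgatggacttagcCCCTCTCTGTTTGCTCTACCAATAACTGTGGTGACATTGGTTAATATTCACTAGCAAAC
Serpina1c: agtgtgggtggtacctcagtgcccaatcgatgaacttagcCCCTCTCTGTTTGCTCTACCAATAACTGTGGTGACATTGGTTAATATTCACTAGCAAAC
Serpina1d: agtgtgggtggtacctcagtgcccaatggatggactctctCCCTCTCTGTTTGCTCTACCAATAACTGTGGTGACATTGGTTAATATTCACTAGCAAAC
Serpina1e: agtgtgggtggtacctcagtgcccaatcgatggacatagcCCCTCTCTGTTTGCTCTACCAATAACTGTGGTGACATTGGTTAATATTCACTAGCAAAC

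Over these 99 bases, pairs of copies were the same at 92 to 97 positions. Searched on both strands, the HNF4 site CAAAGTCCA was in 0.475% of all promoters, the C/EBP palindrome TTGCGCAA in 0.183% and the TATA box TATAAA in 13.6%. None of these 3 strings was in any of the 6 promoters, which says only that these letters are not in these windows. The shared run itself was picked after the sequences were seen.

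Between 14275793 and 20815066 counts per library fell on genes on the reverse strand, the strand used here. Levels are given as CPM, the count relative to the total of its library after TMM scaling. Of 6 hepatocyte markers, 5 were found, and their summed level was 89303 to 107514 CPM in VDD-F1 and 75354 to 95823 CPM in VDS-F1, while 4 markers of pancreas, fat and muscle summed to at most 0.187 CPM, with 2 of the 4 at 0 in every library. All 5 stellate cell markers had a higher mean in VDD-F1, and their sum was 280 to 841 CPM there against 263 to 415 CPM in VDS-F1. Among these the collagens Col3a1 and Col1a1 had log2 fold changes of 1.78 and 2.27 (edgeR adjusted p = 0.0855 and 0.0883), and no gene of the marker lists passed the adjusted threshold by edgeR. DESeq2 called Col3a1 and Col1a1 (adjusted p = 0.00755 and 0.00825). Voom called both (adjusted p = 0.0126 and 0.0274) and the stellate marker Dcn (0.0494) as higher, with the hepatocyte marker Alb (0.0491), and the macrophage marker Clec4f (0.0438) and the endothelial marker Stab2 (0.0448) as lower. Of the endothelial and the macrophage markers, 4 of 5 each had a lower mean in VDD-F1 (summed 186 to 228 against 184 to 262 CPM, and 80.0 to 234 against 124 to 235 CPM). All 4 lymphocyte and all 4 cholangiocyte markers had a higher one (summed 4.82 to 28.7 against 8.08 to 12.5 CPM, and 14.6 to 48.1 against 14.8 to 26.6 CPM). The library of VDD2 stood apart, with the highest scaling factor (1.14, the others from 0.899 to 1.04) and the highest summed stellate (841 CPM), cholangiocyte (48.1 CPM) and lymphocyte (28.7 CPM) markers of the 12. In whole tissue, fewer cells of a type and less RNA per cell cannot be told apart. The part of these markers in the results that follow was not tested.

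Going by mouse number, and taking the numbers of the histology records to be those of the labels, a body-weight-adjusted liver weight had been recorded for 7 of the 12 mice (VDD4, VDD5, VDD6, VDS3, VDS4, VDS5 and VDS6) and not for the other 5 (VDD1, VDD2, VDD3, VDS1 and VDS2). The labels do not say what else set these sets apart. Since several Serpina genes followed this split, each difference is given for all mice and within each set. Within the 5 mice without a recorded weight the adjusted p was 0.9998 for each of the 10 genes, so unadjusted values are printed for them.

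The 10 genes together took 1.80% to 3.52% of all counts of a library. Per kilobase of annotated exon, the order of the levels in VDS-F1 was led by Serpina1e at 3924 ± 655 CPM per kb (SD, n = 6), Serpina3k at 3524 ± 552 and Serpina1c at 3115 ± 318. The ranges of these neighbours overlapped. Serpina1d (2296 ± 55.6), Serpina1b (2059 ± 56.4) and Serpina1a (800 ± 20.03) followed on this scale, with no overlap between neighbours. Serpina3m (125 ± 44.8 CPM per kb) and Serpina6 (91.3 ± 20.2) overlapped, as did Serpina10 (40.3 ± 7.66) and Serpina12 (20.9 ± 9.50), with a gap between the first pair and the second. The level of Serpina1b per kilobase is lowered by its gene model, which counts 2415 exon bases because it includes a long transcript running past Serpina1d, against 1394 in the transcript used above. Per kilobase of that transcript Serpina1b was at 3568 ± 97.7 CPM per kb, above Serpina1d and within the range of Serpina3k, so that its place in the order depends on the gene model. Reads that fit several copies were not counted, and the lengths were not reduced for this. Unique windows made up 41.5% of the Serpina1c transcript, 50.1% of that of Serpina1a and 81.8% of that of Serpina1e. The order of the copies therefore also depends on the reads lost, for which it was not corrected.

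**Figure D1:**
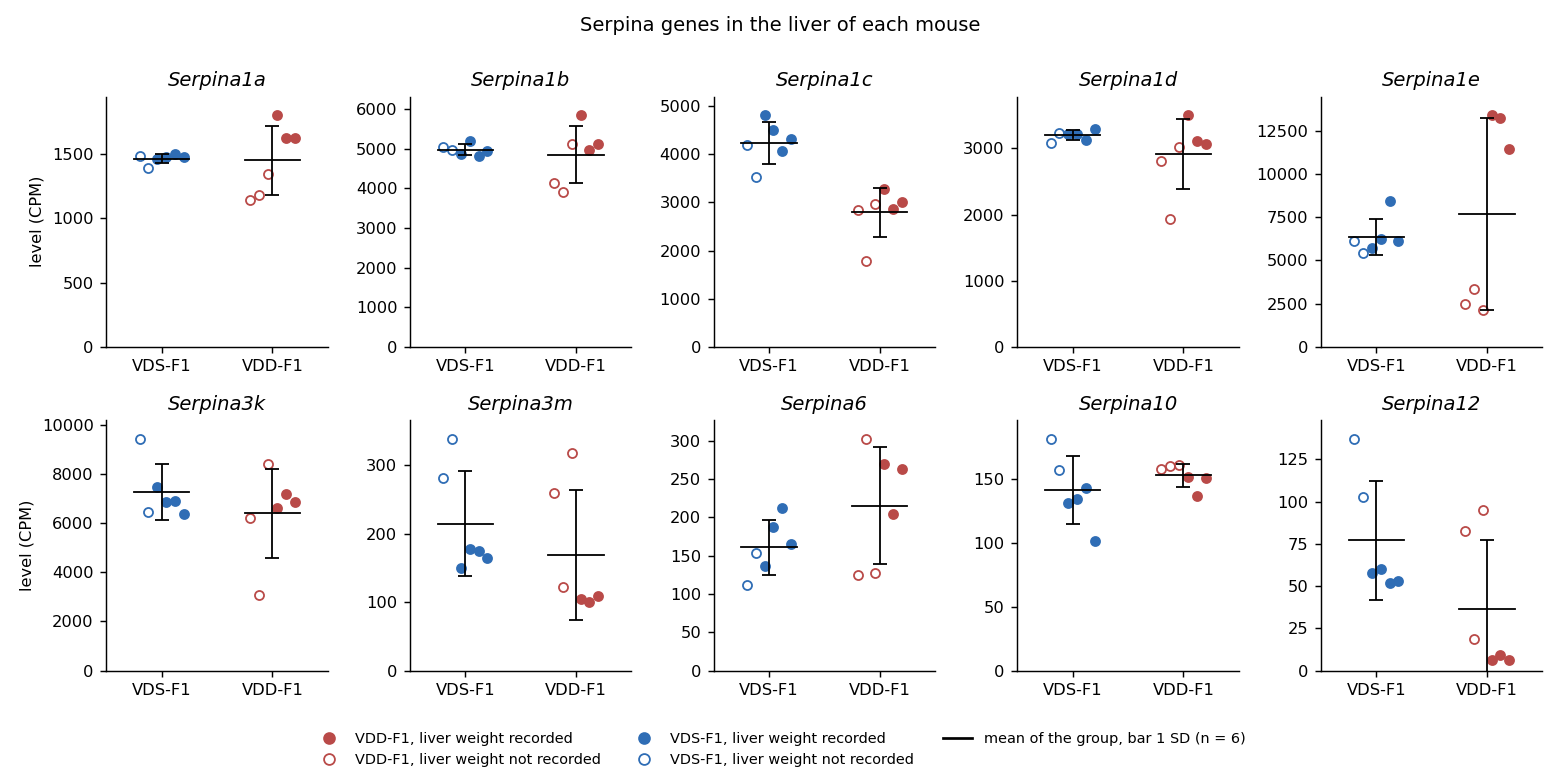
Level in CPM (y axis, from 0) of each of the 10 genes in every mouse, VDS-F1 in blue and VDD-F1 in red, filled where a liver weight was recorded, with the group mean and 1 SD (n = 6). The red points of Serpina1c lie below all blue ones, and those of Serpina1e split into filled and open ones. For Serpina12 the open red point of VDD2 lies near the filled red ones.

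In the comparison of all 6 VDD-F1 with all 6 VDS-F1 mice, none of the 10 genes passed an adjusted p of 0.05 in edgeR's quasi-likelihood test, where 0.0402% of all 12453 genes did. At an unadjusted p under 0.05 there was 1 of the 10, Serpina1c, beside 15.8% of all genes. The direction was lower in VDD-F1 for 7 genes and higher for 3, with a median log2 fold change of -0.09 against 0.00 over all genes. This count gives the 10 genes no common direction, since it was 5 lower and 5 higher without VDD2 (median -0.01), without VDD1 (-0.06), in voom (-0.03) and without TMM scaling (-0.05), 4 lower and 6 higher in the mice with a recorded liver weight (0.05) and 9 lower and 1 higher in those without one (-0.35). DESeq2's Wald test called 1 of the 10 (4.05% of all genes) and voom with quality weights 2 of the 10 (4.74%). The SD in VDD-F1 exceeded that in VDS-F1 for 9 of the 10 genes and for 61.5% of all genes, and without VDD2 for 7 of the 10 and 53.6%.

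Serpina1c stood at 2836, 1792, 2957, 3280, 2865 and 3016 CPM in VDD1 to VDD6 and at 4200, 3536, 4811, 4510, 4059 and 4320 CPM in VDS1 to VDS6. Every VDD-F1 mouse was below every VDS-F1 mouse, as for 0.570% of all genes tested. The mean was 2791 ± 515 CPM in VDD-F1 and 4239 ± 433 CPM in VDS-F1 (SD, n = 6 each), and the log2 fold change was -0.60 (SE 0.14, edgeR adjusted p = 0.0855). The adjusted p was 0.00117 in DESeq2 and 0.0155 in voom, and on leaving out each mouse in turn it lay between 0.0464 (without VDD1, where 1 of the 10 genes was called beside 3.37% of all) and 0.208 (without VDS3) in edgeR. Without VDD2, the lowest mouse, the change was -0.50 (edgeR adjusted p = 0.0837). It was -0.53 (SE 0.09, edgeR adjusted p = 0.00337) with and -0.61 (SE 0.27, edgeR unadjusted p = 0.0585) without a recorded liver weight, and the interaction of diet and set was 0.08 (SE 0.25, edgeR adjusted p = 0.961), or -0.11 without VDD2 (edgeR adjusted p = 0.791).

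Serpina1d, the copy closest to Serpina1c in the loop stretch shown above, was at 2806, 1937, 3026, 3504, 3120 and 3070 CPM in VDD1 to VDD6 and at 3090 to 3301 CPM in VDS-F1 (median 3223). The groups overlapped, and the log2 fold change was -0.14 (SE 0.13, edgeR adjusted p = 0.636). It was -0.04 without VDD2, 0.01 in the 7 mice with a recorded liver weight and -0.29 in the other 5. The ratio of the 2 genes' counts within each library needs no scaling between libraries. It was 1.01, 0.925, 0.977, 0.936, 0.918 and 0.983 in VDD1 to VDD6 and 1.36, 1.09, 1.49, 1.40, 1.30 and 1.31 in VDS1 to VDS6. All VDD-F1 ratios were below all VDS-F1 ratios, VDD2 included, with means of 0.958 ± 0.0372 and 1.33 ± 0.134 (SD, n = 6 each).

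The Serpina1c value depends on the strand. The antisense gene B430119L08Rik overlaps it, and counting without regard to strand gave Serpina1c 8310 counts per library on average against 58836 on its own strand, or 14.1%. For the other 9 genes the count without strand was 100.1% to 100.4% of the stranded one. Without strand, the log2 fold change of Serpina1c was -0.40 (edgeR adjusted p = 0.240).

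**Figure D2:**
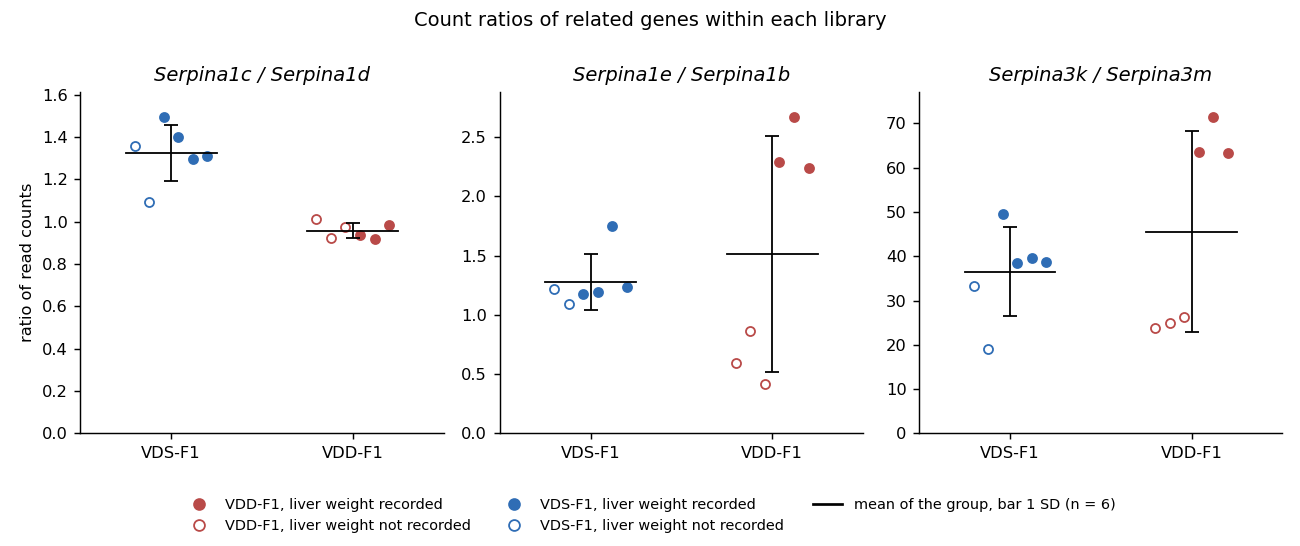
Ratio of read counts (y axis, from 0) of 3 pairs of related genes within each library, by group, with the mean and 1 SD (n = 6) and filled points where a liver weight was recorded. Serpina1c over Serpina1d separates the groups, while Serpina1e over Serpina1b and Serpina3k over Serpina3m split VDD-F1 into 2 sets of 3 mice.

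Serpina1a and Serpina1b were the steadiest copies, with at most 1.57-fold between the lowest and the highest mouse. Serpina1a was at 1147, 1179, 1343, 1804, 1623 and 1625 CPM in VDD1 to VDD6 and at 1396 to 1503 CPM in VDS-F1 (median 1476). In VDD-F1, the 3 mice without a recorded liver weight were below all VDS-F1 mice and the other 3 above them. The log2 fold change was -0.01 (SE 0.12, edgeR adjusted p = 0.978) over all mice, 0.19 with and -0.24 without a recorded weight. Serpina1b was at 3902 to 5844 CPM in VDD-F1 (median 5042) and 4816 to 5203 CPM in VDS-F1 (median 4956), a log2 fold change of -0.04 (SE 0.11, edgeR adjusted p = 0.913), with 0.10 in the mice with and -0.19 in those without a recorded weight. Without VDD2 the changes of Serpina1a and Serpina1b were 0.04 and 0.02. The signs of both genes turned under some alternatives, so they carry no direction.

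Serpina1e was the most variable of the Serpina1 copies, with 6.27-fold between mice. Its levels were 2470, 3356, 2138, 13399, 13261 and 11454 CPM in VDD1 to VDD6 and 6138, 5446, 5725, 6228, 8422 and 6117 CPM in VDS1 to VDS6. VDD1, VDD2 and VDD3 were below every VDS-F1 mouse, and VDD4, VDD5 and VDD6 above every one. Over all mice the log2 fold change was 0.28 (SE 0.43, edgeR adjusted p = 0.800). The mean was 6346 ± 1060 CPM in VDS-F1 and 7680 ± 5562 CPM in VDD-F1 (SD, n = 6 each), and no VDD-F1 mouse lay near the VDD-F1 mean. Leaving out 1 VDD-F1 mouse moved the change to 0.46, 0.43 and 0.47 without VDD1, VDD2 and VDD3 and to 0.04, 0.04 and 0.13 without VDD4, VDD5 and VDD6. With a recorded liver weight it was 0.94 (SE 0.13, edgeR adjusted p = 8.62e-04) and without one -1.12 (SE 0.26, edgeR unadjusted p = 0.00345).

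The difference between these 2 diet effects was tested as an interaction across all genes. It was 2.07 log2 units for Serpina1e (SE 0.27, edgeR adjusted p = 0.0109), the only one of the 10 genes called, where 0.0883% of all genes were. The adjusted p rose to 0.0571 without VDD5 and to 0.0647 without VDS1. Serpina12 missed the threshold (edgeR adjusted p = 0.307) but passed it without VDD2, where 2 of the 10 genes and 2.68% of all genes were called. Serpina1a had an interaction of 0.42 (SE 0.16, edgeR adjusted p = 0.426).

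The make-up of the alpha-1-antitrypsin transcripts shifted with this gene. Serpina1e held 18.4%, 27.6% and 14.7% of the summed counts of the 5 copies in VDD1, VDD2 and VDD3 and 48.1%, 51.3% and 47.2% in VDD4, VDD5 and VDD6, with 28.5% to 38.4% in VDS-F1. The ratio of Serpina1e to Serpina1b counts was 0.417 to 0.860 in the first 3 mice, 2.24 to 2.67 in the other 3 and 1.10 to 1.75 in VDS-F1. The summed level of the 5 copies was 12167 to 14583 CPM in VDD1, VDD2 and VDD3, 24279 to 27831 CPM in VDD4, VDD5 and VDD6 and 18587 to 21927 CPM in VDS-F1. Without Serpina1e, the sum of the other 4 was 8810 to 12446 CPM, 12577 to 14432 CPM and 13141 to 14414 CPM in the same 3 sets.

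**Figure D3:**
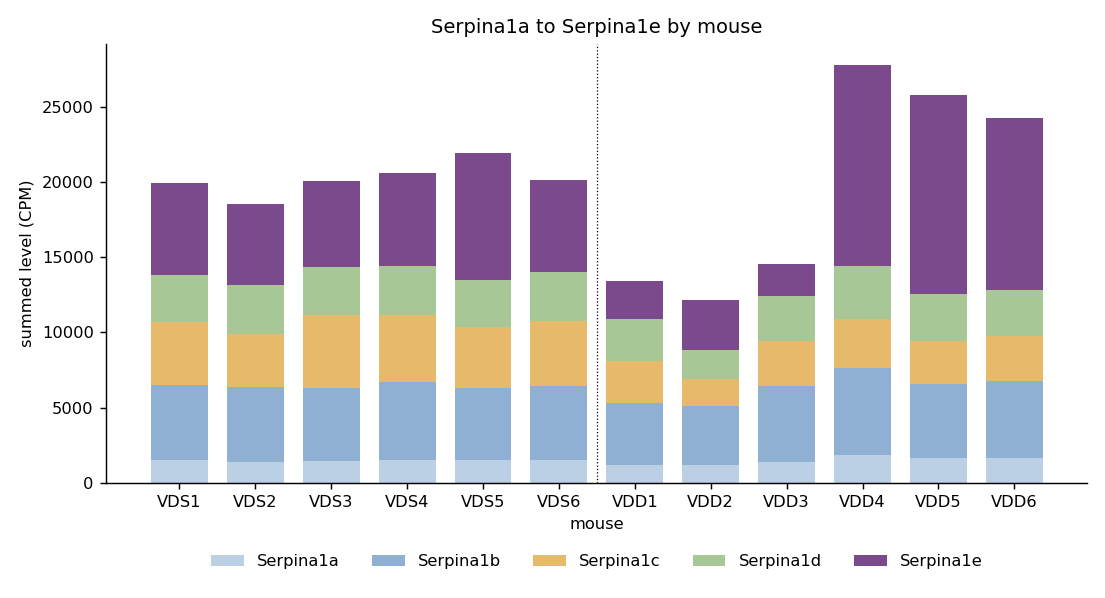
Stacked levels in CPM (y axis, from 0) of the 5 alpha-1-antitrypsin copies in each of the 12 mice, VDS-F1 left and VDD-F1 right of the dotted line. The Serpina1e band is thin in VDD1, VDD2 and VDD3 and makes up about as much as the other 4 together in VDD4, VDD5 and VDD6.

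Serpina3k was at 6201, 3063, 8409, 6630, 7181 and 6864 CPM in VDD1 to VDD6 and 6360 to 9425 CPM in VDS-F1 (median 6891). VDD2 was the lowest and VDS1 the highest, and the other mice of both groups lay together, with a log2 fold change of -0.18 (SE 0.20, edgeR adjusted p = 0.697). It was -0.04 without VDD2, -0.28 without VDD3 and -0.09 without VDS1. With a recorded liver weight the means were 6892 ± 277 CPM in 3 VDD-F1 and 6899 ± 448 CPM in 4 VDS-F1 mice, a log2 fold change of -0.00 (SE 0.09). In the other 5 mice it was -0.43 (SE 0.42, edgeR unadjusted p = 0.337).

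Serpina3m, its neighbour, was at 260, 123, 319, 104, 101 and 108 CPM in VDD1 to VDD6 and 282, 339, 150, 178, 174 and 165 CPM in VDS1 to VDS6. Within the mice with a recorded liver weight VDD-F1 was lower, by a log2 fold change of -0.68 (SE 0.09, edgeR adjusted p = 5.22e-04). Without one it was -0.41 (SE 0.37, edgeR unadjusted p = 0.308), and over all mice -0.35 (SE 0.32, edgeR adjusted p = 0.634). The value over all mice was -0.63 without VDD3 and -0.17 without VDS2. Serpina3k counts were 23.8 to 26.4 times those of Serpina3m in VDD1, VDD2 and VDD3, 63.3 to 71.4 times in VDD4, VDD5 and VDD6 and 19.1 to 49.6 times in VDS-F1. The gene model of Serpina3m starts at the first exon of Serpina3k, so that a read within that exon fits both genes.

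Serpina6, the corticosteroid carrier, was at 124, 302, 128, 270, 204 and 263 CPM in VDD1 to VDD6 and 112, 153, 136, 187, 211 and 165 CPM in VDS1 to VDS6. The groups overlapped, with VDD1 and VDD3 among the lowest mice and VDD2 the highest. The log2 fold change was 0.42 (SE 0.22, edgeR adjusted p = 0.383) over all mice and 0.49 both with (SE 0.14, edgeR adjusted p = 0.0498) and without (SE 0.42, edgeR unadjusted p = 0.290) a recorded liver weight. Without VDD2 it was 0.30 (edgeR adjusted p = 0.602). Of 10 tested genes of glucocorticoid action, none passed the adjusted threshold by edgeR, DESeq2 or voom. The 2 with the smallest p were Tsc22d3, a glucocorticoid-induced gene also called GILZ, at -0.67 (SE 0.29, edgeR adjusted p = 0.280), and Hsd11b1, the enzyme that regenerates active glucocorticoid, at -0.28 (SE 0.12, edgeR adjusted p = 0.291).

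Serpina10, the coagulation inhibitor, varied little. It was at 136 to 161 CPM in VDD-F1 (median 154) and 101 to 181 CPM in VDS-F1 (median 138), a log2 fold change of 0.11 (SE 0.11, edgeR adjusted p = 0.671). It was 0.20 with and -0.08 without a recorded liver weight, and 0.20 without VDS1 and 0.03 without VDS6. Of 7 tested genes for proteases of the blood and other serpin targets, none passed. Proz, which encodes the protein Z that Serpina10 needs, was at -0.23 (SE 0.09, edgeR adjusted p = 0.215), and Proc, protein C, at -0.20 (SE 0.09, edgeR adjusted p = 0.298).

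Serpina12 was the lowest of the 10 genes and the most variable, with 22.2-fold between mice. It was at 82.4, 18.8, 95.1, 6.18, 9.47 and 6.20 CPM in VDD1 to VDD6 and at 137, 103, 57.6, 60.3, 51.5 and 53.2 CPM in VDS1 to VDS6. VDD4, VDD5 and VDD6 were the 3 lowest of the 12 mice and VDD2 the next, while VDD1 and VDD3 lay among the VDS-F1 mice. With a recorded liver weight the means were 7.28 ± 1.89 CPM in 3 VDD-F1 and 55.6 ± 4.02 CPM in 4 VDS-F1 mice, a log2 fold change of -2.93 (SE 0.16, edgeR adjusted p = 9.68e-07). Without one the change was -0.88 (SE 0.58, edgeR unadjusted p = 0.176), and over all mice -1.09 (SE 0.64, edgeR adjusted p = 0.426), with -1.65 without VDD3. Voom with quality weights, which count variable libraries less, put it at -2.33 over all mice (adjusted p = 0.0232). The interaction was -2.05 (SE 0.61) over all mice and -2.49 without VDD2 (edgeR adjusted p = 1.28e-04).

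**Figure D4:**
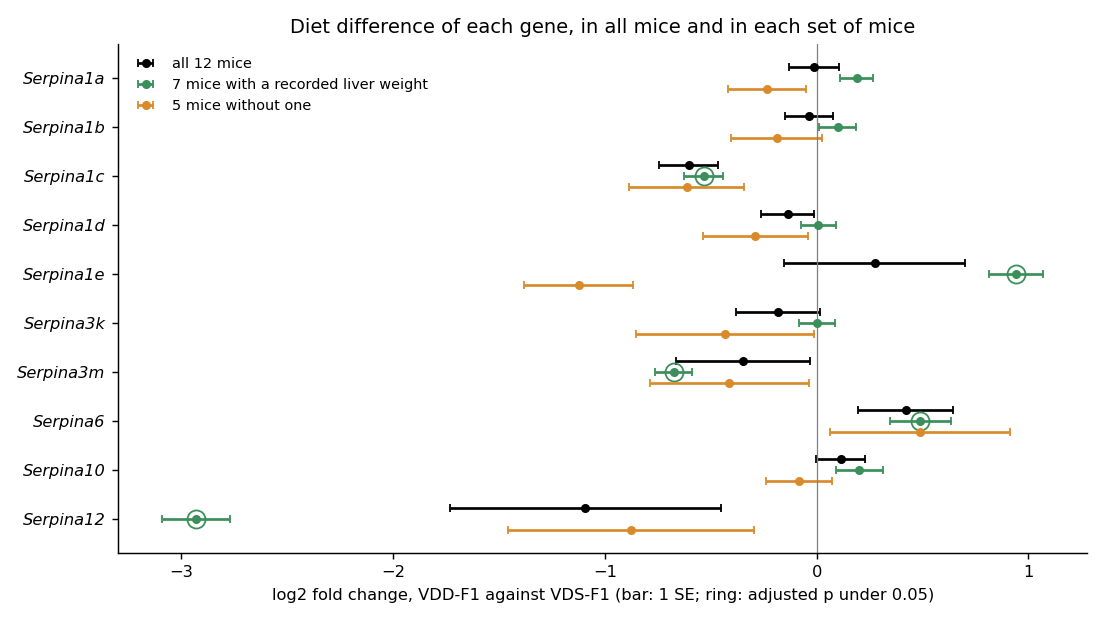
Log2 fold change of VDD-F1 against VDS-F1 (x axis, bar 1 SE) for each gene in all 12 mice (black), the 7 mice with (green) and the 5 without (orange) a recorded liver weight, with a ring where the edgeR adjusted p was under 0.05. Rings appear in green only, for Serpina1c, Serpina1e, Serpina3m, Serpina6 and Serpina12, and Serpina1e lies on opposite sides of 0 in the 2 sets.

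Of the 10 genes, 5 were called within the mice with a recorded liver weight, by edgeR. Serpina12, Serpina3m and Serpina1c were lower in VDD-F1, as were 5.11% of 12369 genes, and Serpina1e and Serpina6 were higher, as were 5.87%. Within the other 5 mice none of the 10 was called, and 0% of 12541 genes were, by edgeR. At an unadjusted p under 0.05 there were 1 of the 10 genes and 473 of all genes there. The sets themselves differed for 2 of the 10 genes with the diet as a covariate, where 2.46% of all genes did. Serpina12 was lower with a recorded weight, by a log2 difference of -2.21 (SE 0.43, edgeR adjusted p = 0.0175), and Serpina3m by one of -1.04 (SE 0.18, edgeR adjusted p = 0.00715). Serpina1e was 1.22 higher (SE 0.32, edgeR adjusted p = 0.0712). In VDS-F1 alone Serpina12 was at 103 and 137 CPM in the 2 mice without and 51.5 to 60.3 CPM in the 4 with a recorded weight, while the ranges of Serpina1e in these mice overlapped. Between the sets, 1 of 7 nuclear RNAs was lower with a recorded weight at the adjusted threshold, Rmrp, at -0.63 (SE 0.15, edgeR adjusted p = 0.0489). At an unadjusted p under 0.05, 3 of the 7 nuclear RNAs were lower (median log2 difference -0.33) and 3 of 5 endothelial markers higher (median 0.27), by edgeR. Their part in the differences between the sets was not tested.

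The genes whose log2 CPM followed Serpina12 most closely over the 12 mice, among 12423 genes outside the serpin family, were Glul (glutamine synthetase), Slc22a7 (an organic anion transporter), Ttbk1, Plbd1 and Zc2hc1c, with Pearson r from 0.967 to 0.982. These are descriptions over mice that share libraries and the split into sets. Glul was at 1309, 392, 1568, 313, 298 and 261 CPM in VDD1 to VDD6 and 918 to 1477 CPM in VDS-F1. Slc22a7 was at 62.6, 16.8, 53.0, 7.96, 5.05 and 5.22 CPM in VDD1 to VDD6 and 35.6 to 81.4 CPM in VDS-F1. VDD2 stood with VDD4, VDD5 and VDD6 in all 3 genes.

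**Figure D5:**
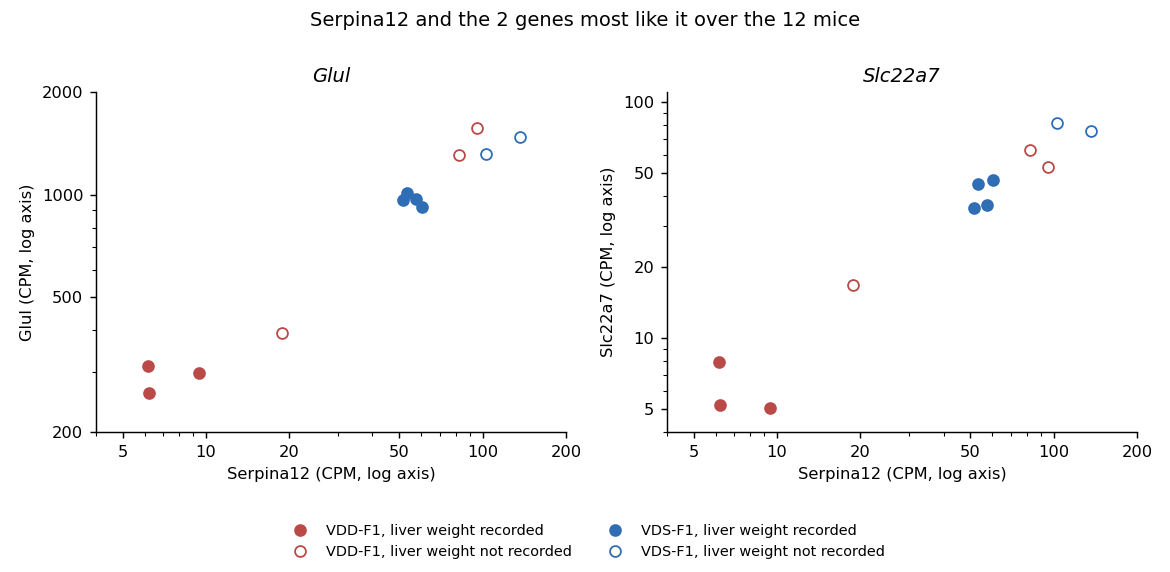
Level of Serpina12 (x axis, CPM, log axis) against Glul and Slc22a7 (y axes, CPM, log axis) in the 12 mice, coloured by group and filled where a liver weight was recorded. In both panels VDD2, VDD4, VDD5 and VDD6 lie at the lower left, and the other 8 mice at the upper right.

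For the summed counts of the 5 Serpina1 copies, the most alike genes were Gm20300, Aadat, Ces1c, Acadsb and Azgp1, with r from 0.922 to 0.933. Aadat takes part in lysine and tryptophan breakdown and Acadsb in that of branched-chain amino acids. Acadsb was at 91.8, 88.2 and 84.1 CPM in VDD1, VDD2 and VDD3, at 147, 154 and 148 CPM in VDD4, VDD5 and VDD6 and at 99.7 to 139 CPM in VDS-F1. For Serpina1e alone, a choice made after its values were seen, they were Acadsb, Ivd, Itih1, Gm20300 and Gm4788 (r from 0.877 to 0.924). Ivd, isovaleryl-CoA dehydrogenase of leucine breakdown, was at 126 to 153 CPM in VDD1, VDD2 and VDD3, at 208 to 242 CPM in VDD4, VDD5 and VDD6 and at 168 to 207 CPM in VDS-F1.

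Among genes related by function, no list held a gene past the adjusted threshold in the comparison of all mice by edgeR. Of the hepatocyte transcription factors, Hnf4a was at 622 ± 83.1 against 759 ± 134 CPM (log2 fold change -0.29, SE 0.13, edgeR adjusted p = 0.301). Of 13 genes that fold, sort and degrade alpha-1-antitrypsin in the secretory path, 1 had an unadjusted p under 0.05 (15.8% of all genes did), Sel1l, at -0.29 (edgeR adjusted p = 0.272), and Syvn1, its partner in degradation at the endoplasmic reticulum, was at -0.51 (edgeR adjusted p = 0.344). Of 21 acute-phase genes, 2 had an unadjusted p under 0.05 higher and 1 lower, a share near the 15.8% of all genes, with Saa4 at -0.79 (edgeR adjusted p = 0.0855) and Hpx, hemopexin, at 0.59 (edgeR adjusted p = 0.137). Both passed in DESeq2 (adjusted p = 0.00360 and 0.0318) and in voom (adjusted p = 0.0147 and 0.0228). Of 8 genes of the growth hormone axis none had an unadjusted p under 0.05, the nearest being Igfals at -0.34 (edgeR adjusted p = 0.323) and Ghr, the receptor, at -0.21 (edgeR adjusted p = 0.406). Of 18 other secreted liver proteins none did either, with Apoa2 at -0.31 and Alb, albumin, at 0.24 (edgeR adjusted p = 0.334 and 0.379). Of 7 nuclear RNAs, measured as a sign of RNA composition, Rmrp was at 0.57 and Malat1 at -0.46 (edgeR adjusted p = 0.225 and 0.296), and voom called Malat1 (adjusted p = 0.0462).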

How the data were processed

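Total RNA from liver was depleted of ribosomal RNA, made into stranded libraries and sequenced by the authors, who aligned the reads with STAR to GRCm38 (mm10) and deposited raw counts per gene, with 1 count without strand and 1 for each strand. The STAR version is not given in the sources used here. The counts were not normalized, and reads with several alignments were in no gene's count. The reverse-strand counts were used, which exceeded the forward ones in all 12 libraries (14275793 to 20815066 per library). Genes were named from GENCODE M21 (the authors used M15), with 52489 of 52636 matched.

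Diet groups were compared by edgeR 4.0.16 in R 4.3.3 (TMM, quasi-likelihood fit in the legacy form, mean count of at least 12, Benjamini-Hochberg adjustment over all 12453 genes, threshold 0.05). The same fit was made within each set of mice, between the sets with the diet as covariate, and for their interaction. Alternatives were DESeq2 1.42.0, voom in limma 3.58.1, other fits, scalings, filters, strands, covariates and each mouse left out. Differences in level use CPM, and likeness uses log2 CPM with a prior count of 2. Sequences were compared with MAFFT 7.526 and Python 3.11.15.

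The 10 genes, the gene lists and the tests were chosen with earlier results of these data known. Of other Serpina genes, other serpins and the lists (proteases, glucocorticoid action, hepatocyte factors, acute phase, growth hormone axis, secretory path, other secreted proteins, nuclear RNAs, cell markers), those past the adjusted threshold were named, or else the 2 with the smallest p. A hepatocyte factor and a promoter motif of these lists are not reported here. The split by recorded liver weight comes from the paper's histology panel, read by mouse number.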

Additional observations from a re-analysis of the deposited data

Results flagged for a closer look

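In 20 groups of 6 mice (10 genes in each diet group), a mouse stood apart from the other 5 in 3. Some such cases arise by chance. The 10 genes share the same libraries, so the 20 groups are not independent and 3 is not read as an excess. Serpina1c was at 1792 CPM in VDD2 against 2836 to 3280 CPM in the other VDD-F1 mice. Serpina1e was at 8422 CPM in VDS5 against 5446 to 6228 CPM in the other VDS-F1 mice. Serpina3k was at 9425 CPM in VDS1 against 6360 to 7457 CPM in the other VDS-F1 mice. The diet effect on Serpina1e differed between the 2 sets of mice, those with a recorded liver weight and those with none, by 2.07 on the log2 scale, as tested by the interaction term.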

How the results depend on the processing

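Over all mice by diet, 5 genes passed the adjusted p alone and with a log2 fold change beyond 1. These 2 counts were 504 and 253 in DESeq2, 590 and 252 in voom, 2 and 2 in the robust fit, 20 and 17 in the newer edgeR form, 85 and 70 without a filter, 28 and 21 with the set as covariate, 1358 and 536 within the mice with and 0 and 0 within those without a recorded liver weight, and 19 and 17 with a replicate block. Leaving out each mouse gave 0 to 420 and 0 to 260. The highest were without VDD1. Of the 10 Serpina genes 0 were called, against 1 in DESeq2, 2 in voom, 5 within the mice with a recorded weight and 0 to 1 on leaving out a mouse. Genes changed between sets numbered 306, 581 in DESeq2 and 143 to 498 on leaving out a mouse, with 2 and 1 to 3 of the 10. Serpina12 kept its size between the sets but rose above 0.05 without VDD4, VDD5 or VDD6 (edgeR adjusted p = 0.0599, 0.0584 and 0.0611). Serpina1e passed between the sets without VDS1 (edgeR adjusted p = 0.0415), and Serpina6 without VDD2 (edgeR adjusted p = 0.0247). The interaction count was 11, 138 in DESeq2, 17 in the newer form and 3 to 332 on leaving out a mouse (332 without VDD2), with 1 and 0 to 2 of the 10. Of the genes called anywhere by diet, Serpina1c, Serpina3m, Serpina6 and Serpina12 kept their sign under the 25 alternatives. Serpina1e turned in 2, at -1.12 in the mice without a recorded weight and -0.12 with the replicate block. Mice of the same number correlated at -0.0762 to 0.103, and the labels give them only a number in common. Every number but 3 joined mice of the same set, so the replicate block largely carries that split. With the block none of the 10 was called. The causes were not tested. With 3 VDD-F1 and 2 VDS-F1 mice lacking a recorded weight, a p that misses the threshold says little.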

Other observations

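Other Serpina genes differed between the sets of mice. With the diet as a covariate, 1 of 7 tested Serpina genes outside the 10 was higher and 2 were lower in the mice with a recorded liver weight at an adjusted p under 0.05, where 2.46% of all 12453 genes were called (112 higher and 194 lower). Serpina3n, an acute-phase copy of the antichymotrypsin family, was at 573, 404, 589, 249, 232 and 204 CPM in VDD1 to VDD6 and 836, 853, 297, 286, 385 and 341 CPM in VDS1 to VDS6, lower with a recorded weight by 1.28 log2 units (SE 0.11, edgeR adjusted p = 5.15e-05). Serpina7, thyroxine-binding globulin, was lower by 1.01 (SE 0.22, edgeR adjusted p = 0.0269), and the pseudogene Serpina4-ps1 was 1.63 higher (SE 0.35, edgeR adjusted p = 0.0268). Within the mice with a recorded weight, Serpina7 was at 43.3 ± 3.58 CPM in 3 VDD-F1 and 18.2 ± 6.34 CPM in 4 VDS-F1 mice, a log2 fold change of 1.25 (SE 0.23, edgeR adjusted p = 0.00502). By diet over all mice, none of the 7 passed the adjusted threshold in edgeR, and 1, Serpina7 (0.83, edgeR adjusted p = 0.253), had an unadjusted p under 0.05 and was called by voom (adjusted p = 0.0482). Of 13 tested serpins outside the Serpina group none passed by edgeR either, with 3 higher and 1 lower at an unadjusted p under 0.05, where 15.8% of all genes were (1189 higher and 783 lower). Serpinh1, the collagen chaperone HSP47, was at 27.9 ± 9.86 CPM in VDD-F1 and 15.7 ± 1.43 CPM in VDS-F1 (log2 fold change 0.83, SE 0.21, edgeR adjusted p = 0.0947), and Serpinb8 at 4.77 ± 1.29 and 1.89 ± 1.26 CPM (1.33, SE 0.34, edgeR adjusted p = 0.0976). DESeq2 called 3 of the 13, where it called 4.05% of all genes: Serpinh1 (adjusted p = 0.00884), Serpinb8 (0.00894) and Serpinb1a, which was lower (0.0426). Voom called Serpinh1 (adjusted p = 0.0232) and Serpinb8 (0.0126), beside 4.74% of all genes.

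Of 21 acute-phase genes, 6 were lower with a recorded liver weight at an adjusted p under 0.05, and none higher, beside 194 lower and 112 higher of all 12453 genes. No test of the list was made. They were Lcn2 (-2.92), Saa1 (-2.47), Saa2 (-2.41), Apcs (-1.35), Hp (-0.76) and Stat3 (-0.50 on the log2 scale). For Saa1 and Saa2, serum amyloid A proteins, the diet effect differed between the sets by 3.30 (SE 0.32) and 3.22 (SE 0.33) log2 units (edgeR adjusted p = 0.00151 for each). Of the glucocorticoid list, Sgk1 had an interaction of 2.77 (SE 0.44, edgeR adjusted p = 0.0321). Igfals, a carrier of insulin-like growth factor, was 0.49 higher with a recorded weight (SE 0.11, edgeR adjusted p = 0.0324).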
